A study of Mus musculus with 15 samples.

Results

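Hematopoietic stem cells (HSCs) of aged mice labelled as Thbs1 knockout were compared with those of young control mice, to describe how far the aged cells of that label lay from the young state. The comparison rested on the 5 libraries titled aged Thbs1 knockout (18 months) and the 5 titled young control (3 months), 10 of the 15 libraries of the study, and was described across the 11345 of 20696 genes whose FPKM averaged at least 1 over all libraries. FPKM is the number of read fragments of a gene scaled by transcript length and by the fragments mapped in the library. The other 5 libraries, from aged control mice of 18 months, were set beside them for many of the results. The cells were flow sorted from bone marrow, and libraries were made with SMART-Seq v4, a full-length cDNA method for low input, from 2 ng of total RNA. The genotype label of both control groups says no more than control and age, and no label names the mouse strain, the knockout allele, the sort markers or the number of animals. Age and label differ together between the labelled knockout and young libraries, so their parts in a difference cannot be told apart in this comparison. The aged controls have the same age as the labelled knockout libraries, with 3 male and 2 female libraries against 2 male and 3 female by library name. P-values measure the spread between these libraries, which the labels do not tie to separate animals.

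HSCs renew themselves and give rise to all blood lineages. With age they increase in number, produce fewer lymphoid and more myeloid and platelet-biased cells, and raise a recurrent group of transcripts that encode adhesion molecules, platelet proteins, metallothioneins and stress proteins. Thrombospondin 1, the product of Thbs1, is a matrix glycoprotein that is stored in platelets, binds CD47 and integrins and can activate latent TGF-beta.

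Reads assigned to genes, recovered from the FPKM values, came to between 16646141 and 28619002 per library. The lowest correlation across genes between 2 libraries of a group was 0.919 among labelled knockout libraries and 0.953 among aged controls. Labelled knockout libraries 2 and 5 stood apart: rRNA-like genes took 4.49% and 2.09% of their reads, against 0.592% to 1.49% in the other 13 libraries. Main results are therefore also given without these 2 libraries. By the library names in the table header, young controls 1 and 2, aged controls 1 to 3 and labelled knockout libraries 1 and 2 were male and the others female. Males carried the lower numbers in every group, so sex and any batch that followed the numbers cannot be told apart. Group membership followed the titles in the table. Matched to the sample descriptions, the library names point to another sample for 10 of the 15 columns. The grouping by library name below uses that match. A letter within the library names followed the titles: A in young control, B in aged control and C in labelled knockout columns. Which assignment is right was not tested.

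Thbs1 itself (ENSMUSG00000040152, GRCm38 chromosome 2, 118111876 to 118127133) was not lower in the labelled knockout libraries. Labelled knockout libraries 1 to 5 held 2.53, 1.69, 17.9, 12.7 and 17.2 FPKM, beside 0.76, 0.70, 13.4, 2.42 and 3.95 in young controls 1 to 5. The groups overlapped, and in both the male libraries held the lowest values. The difference was 1.19 on the log2(FPKM + 1) scale (SE 0.71, n = 5 against 5, limma adjusted p = 0.324), 1.43 among females and 0.83 among males. A two-sided exact permutation test gave p = 0.19, where 0.00794 was the lowest attainable. In a fit that included sex the limma adjusted p was 0.0374. Whether the reads came from the deleted part of the gene cannot be seen from a gene total. Every direction below is therefore one of libraries labelled aged Thbs1 knockout, not of a measured loss of Thbs1.

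Across all genes the labelled knockout libraries did not lie measurably closer to the young state than the aged controls. Distance was taken as the root mean square log2 difference from the mean of the young controls, 1 value per library. Young controls, each set against the other 4, lay at 0.322, 0.323, 0.238, 0.241 and 0.239. Labelled knockout libraries 1 to 5 lay at 0.506, 0.675, 0.275, 0.325 and 0.742, and aged controls 1 to 5 at 0.505, 0.561, 0.580, 0.390 and 0.355. Labelled knockout library 3 thus lay inside the young range and 4 just beyond it, whereas 2 and 5 lay beyond every aged control. In both control groups every male library lay farther than every female. Library 3, a female, lay beyond every young female. Among females, libraries 3 and 4 lay nearer than the aged controls and 5 farther. Among males, library 1 lay within the aged range and 2 beyond it. Distance was not tested within a sex. The means were 0.505 ± 0.206 and 0.478 ± 0.101 (SD, n = 5 each; exact two-sided permutation p = 0.778). The sign of this difference rested on single libraries. It was -0.109 without labelled knockout libraries 2 and 5 (n = 3 against 5, exact permutation p = 0.214), -0.016 without labelled knockout library 2 alone, -0.033 without 5 alone and -0.0045 without aged control 5.

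**Figure D1:**
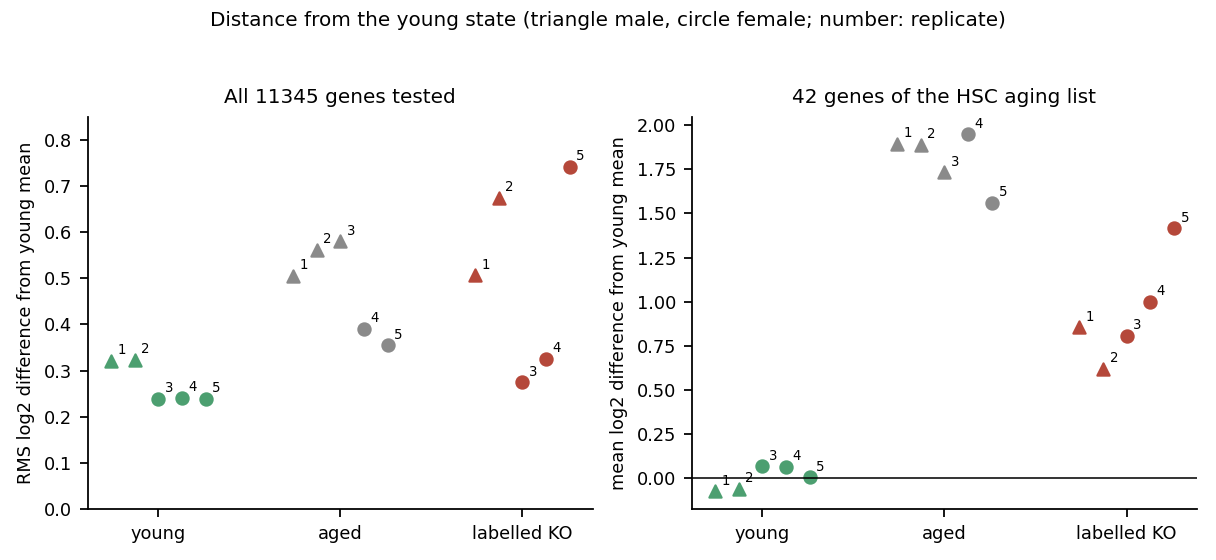
Distance of each HSC library from the mean of the young controls: root mean square log2 difference over all tested genes (left axis) and mean log2 difference over the 42 tested genes of the HSC aging list (right axis), by group, with replicate numbers; triangles are male and circles female libraries. Over all genes the labelled knockout (KO) libraries spread from 0.275 to 0.742 around the aged values, and over the aging list they sit between 0.62 and 1.42, above every young and below every aged control.

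Gene by gene, fewer genes separated the labelled knockout libraries from young controls than separated aged controls from them. Of 11345 genes, 185 (1.63%) passed limma's test at an adjusted p under 0.05, 115 higher (1.01%) and 70 lower (0.617%). Of all genes, 86 (0.758%) passed and also differed at least 2-fold on the log2(FPKM + 1) scale. Aged against young controls gave 501 genes (4.42%; 361 higher, 3.18%, and 140 lower, 1.23%), and labelled knockout against aged control libraries gave 176 (1.55%; 41 higher, 0.361%, and 135 lower, 1.19%). Both contrasts with young controls use the same 5 young libraries, and whether the counts differ was not tested. All libraries of a group lay beyond all of the other for 510 genes (4.5%) between labelled knockout and young, 812 (7.16%) between aged and young, and 266 (2.34%) between labelled knockout and aged. The median log2 difference over all genes was -0.06, -0.02 and -0.03 in the same order.

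These counts moved with single libraries. The 185 genes became 98, 123, 103, 115 and 98 without young controls 1 to 5, and 496 and 676 without labelled knockout library 3 or 4. The 501 became 330 and 322 without young control 1 or 3, 314, 317 and 311 without aged controls 1, 2 or 3, and 943 without aged control 5. The 176 became 95, 102 and 115 without aged controls 1, 2 or 3. Without labelled knockout libraries 2 and 5 the 3 counts were 124, 1030 and 184. With the columns grouped by library name in place of title, the 3 counts were 15, 0 and 0 (limma adjusted p; 642 and 731 genes had an unadjusted p under 0.05 in the last 2), and of 61 called genes named below 11 changed sign and 1 kept its call. By library name the young group held only male and the labelled knockout group only female libraries. Group and sex cannot be told apart in that contrast. Among males alone the labelled knockout against young contrast, by title, gave 875 genes, among females alone 11, and with sex as a covariate 429. No gene passed an adjusted test of whether the contrast differed between the sexes, and 861 (7.59%) had an unadjusted p under 0.05 for it (limma interaction term).

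The metallothioneins, small zinc-binding proteins of the stress response, rose over young controls. Mt1 had an FPKM of 19.99, 28.2, 29.9, 37.7 and 24.6 in young controls, 174, 196, 152, 120.1 and 151 in aged controls and 133, 151, 109, 132 and 312 in labelled knockout libraries. All 5 labelled knockout libraries lay above all young controls, with library 5 above, library 3 below and the other 3 within the aged range. The rise was 2.46 on the log2 scale (95% interval 1.97 to 2.94, limma adjusted p = 5.68e-06), 2.41 among females and 2.53 among males, and the difference from aged controls was -0.01 (-0.50 to 0.48, limma adjusted p = 0.99). Mt2 went from 1.26 ± 0.302 FPKM (SD, n = 5) in young controls to 10.1 ± 7.79 in labelled knockout libraries, against 11.7 ± 2.22 in aged controls. Its rise of 2.12 (limma adjusted p = 3.27e-04) included library 5 at 24.1 FPKM, while libraries 1 to 4 lay between 6.18 and 7.41, below all aged controls.

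Other genes known to rise in aged HSCs rose as well and did not pass the test against aged controls. Tm4sf1, a membrane protein of the tetraspanin-like family, lay at 1.95 ± 0.694 FPKM in young, 12.5 ± 4.52 in aged and 9.48 ± 5.04 in labelled knockout libraries, a rise of 1.74 (limma adjusted p = 0.00391). Amotl2, an angiomotin family scaffold, rose by 1.07 from 2.58 ± 0.642 to 6.65 ± 2.06 FPKM (limma adjusted p = 0.00486), with 9.76 ± 1.68 in aged controls. Art4, an ADP-ribosyltransferase that carries a blood group antigen, was abundant in every group. It measured 53.6, 61.6, 47.6, 58.8 and 60.8 FPKM in young controls and 95.9, 80.99, 80.8, 107 and 74.1 in labelled knockout libraries, with no overlap and a rise of 0.62 (limma adjusted p = 0.023), and the call was lost in 3 of 15 fits that each omitted 1 library (young controls 1 and 3; labelled knockout library 1; limma adjusted p up to 0.0815). Sult1a1, a sulfotransferase, rose by 1.31 (limma adjusted p = 0.0287), from 51.8 ± 13.5 to 144 ± 86.4 FPKM. Its call was lost in 3 of 15 fits that each omitted 1 library (young controls 1, 2 and 5; limma adjusted p up to 0.0971), and without labelled knockout libraries 2 and 5 the rise was 1.06 (limma adjusted p = 0.08). Against aged controls the limma adjusted p-values of the 4 genes were 0.567, 0.216, 0.54 and 0.436.

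A second group of aging genes lay between the young and aged levels and passed the test against both. Clu encodes clusterin, an extracellular chaperone. It measured 16.2, 20.1, 17.2, 20.8 and 15.6 FPKM in young controls, 66.8, 55.6, 40.5, 47.5 and 71.4 in labelled knockout libraries and 161, 145, 146, 118 and 103 in aged controls, 3 ranges that did not overlap. The rise over young controls was 1.57 (1.23 to 1.92, limma adjusted p = 2.04e-05; 1.49 among females, 1.70 among males), and the level lay -1.25 from aged controls (-1.59 to -0.91, limma adjusted p = 2.81e-04). Selp, encoding the platelet and endothelial adhesion molecule P-selectin, measured 6.52, 7.71, 15.8, 16.4 and 15.6 FPKM in young, 21.5, 15.6, 36.5, 35.9 and 42.05 in labelled knockout and 73.6, 77.1, 72.4, 82.7 and 66.3 in aged libraries. Within each of the first 2 groups the male libraries were lowest, and labelled knockout library 2 fell inside the young range. Selp rose by 1.23 (limma adjusted p = 0.0228; 1.21 among females, 1.25 among males) and lay -1.35 from aged controls (limma adjusted p = 0.0102). Its call against young controls was lost in 3 of 15 fits that each omitted 1 library (young controls 1 and 2; labelled knockout library 5; limma adjusted p up to 0.0745).

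Gpr183, the oxysterol receptor that guides lymphocyte positioning, had an FPKM of 1.03, 0.92, 0.61, 0.88 and 1.38 in young controls, 7.21, 7.19, 2.43, 4.29 and 14.9 in labelled knockout libraries and 26.01, 32.8, 27.9, 31.8 and 12.3 in aged controls. Labelled knockout library 5 and aged control 5 overlapped, the other libraries did not. The rise over young controls was 1.89 (1.21 to 2.56, limma adjusted p = 0.00443), and the level lay -1.84 from aged controls (limma adjusted p = 0.00362). Zg16, a secretory granule lectin, averaged 0.68 ± 0.563 in young, 6.12 ± 3.63 in labelled knockout and 17.1 ± 4.62 in aged libraries. Sbspon, a secreted protein with somatomedin B and thrombospondin type 1 domains, averaged 0.674 ± 0.277, 5.42 ± 2.47 and 19.3 ± 8.55. Cldn5, a claudin of endothelial tight junctions, averaged 2.96 ± 0.409, 18.6 ± 7.80 and 64.6 ± 35.7. All 3 genes rose over young controls, by 1.96, 1.88 and 2.24, with no overlap with the young libraries, and lay -1.50, -1.58 and -1.58 from aged controls, whose lowest library overlapped them for Sbspon and Cldn5 (limma adjusted p = 0.025, 0.011 and 0.0288).

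Nupr1, a stress-induced nuclear protein, and Plscr2, a phospholipid scramblase family member, showed the same order with 1 high library. Nupr1 measured 30.9, 27.5, 26.2, 28.9 and 75.6 FPKM in labelled knockout libraries, against 13.9 ± 2.37 in young and 86.4 ± 13.2 in aged controls. It rose by 1.27 (limma adjusted p = 0.00602) and lay -1.28 from aged controls (limma adjusted p = 0.00432). Plscr2 measured 3.86, 5.25, 5.31, 5.90 and 18.6 FPKM in labelled knockout libraries, against 2.32 ± 0.244 in young and 24.6 ± 7.37 in aged controls. For both, library 5 was the highest and libraries 1 to 4 lay close together above all young controls. Plscr2 rose by 1.204 (limma adjusted p = 0.0387) and lay -1.70 from aged controls (limma adjusted p = 0.00285). Its call against young controls was lost in 7 of 15 fits that each omitted 1 library (young controls 1, 2, 3, 4 and 5; aged control 1; labelled knockout library 2; limma adjusted p up to 0.0977), and without labelled knockout libraries 2 and 5 the rise was 0.85 (limma adjusted p = 0.0556).

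Rcvrn and 2 further aging genes lay more than 2 log2 units below aged controls. Rcvrn, encoding the calcium sensor recoverin, had an FPKM of 0.10, 0.35, 0.40, 0.52 and 0.28 in young controls, 1.98, 0.74, 0.98, 1.94 and 4.24 in labelled knockout libraries and 17.3, 15.7, 14.01, 13.1 and 8.57 in aged controls. The 3 ranges did not overlap. It rose by 1.06 over young controls (limma adjusted p = 0.0361) and lay -2.39 from aged controls (-2.91 to -1.87, limma adjusted p = 1.89e-05). Its call against young controls was lost in 7 of 15 fits that each omitted 1 library (young controls 1, 2, 3, 4 and 5; labelled knockout libraries 1 and 5; limma adjusted p up to 0.11), and with the replicate number as a block its adjusted p was 0.0664. Muc1, a cell surface mucin, averaged 0.992 ± 0.304, 2.73 ± 2.66 and 15.4 ± 6.62 FPKM in young, labelled knockout and aged libraries. Tmem215 averaged 0.278 ± 0.0907, 0.90 ± 1.02 and 7.97 ± 4.76. Neither passed the test against young controls, with differences of 0.67 and 0.45 (limma adjusted p = 0.252 and 0.408), and both lay below aged controls, by differences of -2.30 and -2.20 (limma adjusted p = 8.07e-04 and 9.80e-04). Tmem215 passed the filter of at least 1 FPKM only through the aged controls. Its test against them is therefore no separate support.

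**Figure D2:**
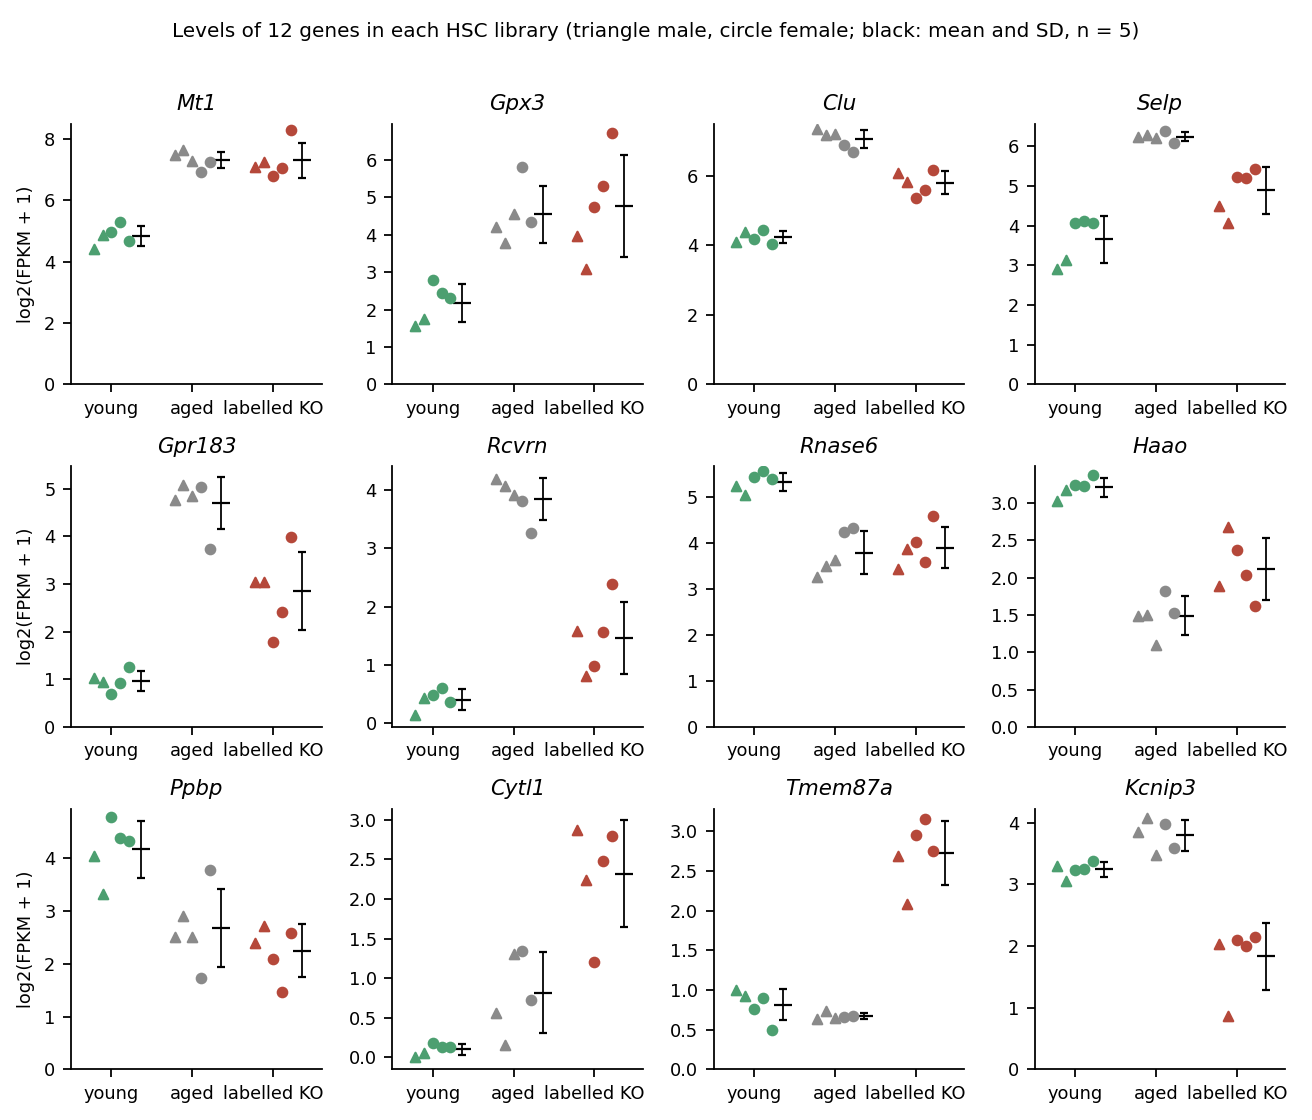
Expression of 12 genes in each HSC library on the log2(FPKM + 1) scale, by group; triangles are male and circles female libraries, and the black marks give the mean and SD of 5 libraries. Mt1 and Gpx3 in the labelled knockout (KO) libraries overlap the aged controls, Clu, Selp and Rcvrn lie below them, as do 4 of the 5 values of Gpr183, Rnase6, Haao and Ppbp lie below the young controls, and Cytl1 and Tmem87a lie above, and Kcnip3 below, the means of both control groups.

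The HSC aging list holds 48 genes known to rise in aged HSCs, of which 42 were tested. It was chosen with earlier results of these data known, and the filter on FPKM included the aged controls. Its counts therefore describe these libraries and are no separate support for a difference from aged controls. Against young controls 17 of the 42 rose and none fell in the labelled knockout libraries, beside 1.01% of all genes called higher, and the median difference was 0.76, beside -0.06 over all genes. In aged controls, measured from the same young libraries, 32 rose, beside 3.18% of all genes, and none fell. Their median was 1.82 beside -0.02 over all genes. Directly against aged controls 16 of the 42 were lower in the labelled knockout libraries, beside 1.19% of all genes, none was higher, and the median was -0.74. The mean log2 difference of the 42 genes from the young mean was 0.85, 0.62, 0.81, 1.001 and 1.42 in labelled knockout libraries 1 to 5, and 1.90, 1.89, 1.73, 1.95 and 1.56 in aged controls 1 to 5, groups that did not overlap. Library 5 came nearest to the aged controls and library 2 lay nearest to the young. The list median was 0.97 among females and 0.66 among males, and 0.79 without labelled knockout libraries 2 and 5, where 19 members rose. Among females alone 3 members rose, and among males alone 15. Without young control 1 only 10 rose, and with the columns grouped by library name none did, with a median of 0.27. The members beyond Mt1, Mt2 and those named above include Matn4, a matrilin of the extracellular matrix (1.26 ± 0.283, 21.3 ± 12.7 and 10.1 ± 6.97 FPKM in young, aged and labelled knockout libraries; rise 2.09, limma adjusted p = 0.0154, and 0.0516 without young control 1). They also include Gstm2, a glutathione transferase (12.6 ± 3.38, 95.1 ± 61.4 and 45.3 ± 16.8; rise 1.73, limma adjusted p = 0.039), whose call was lost in 8 of 15 fits that each omitted 1 library (young controls 1, 2, 3, 4 and 5; labelled knockout libraries 1, 2 and 5; limma adjusted p up to 0.114).

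**Figure D3:**
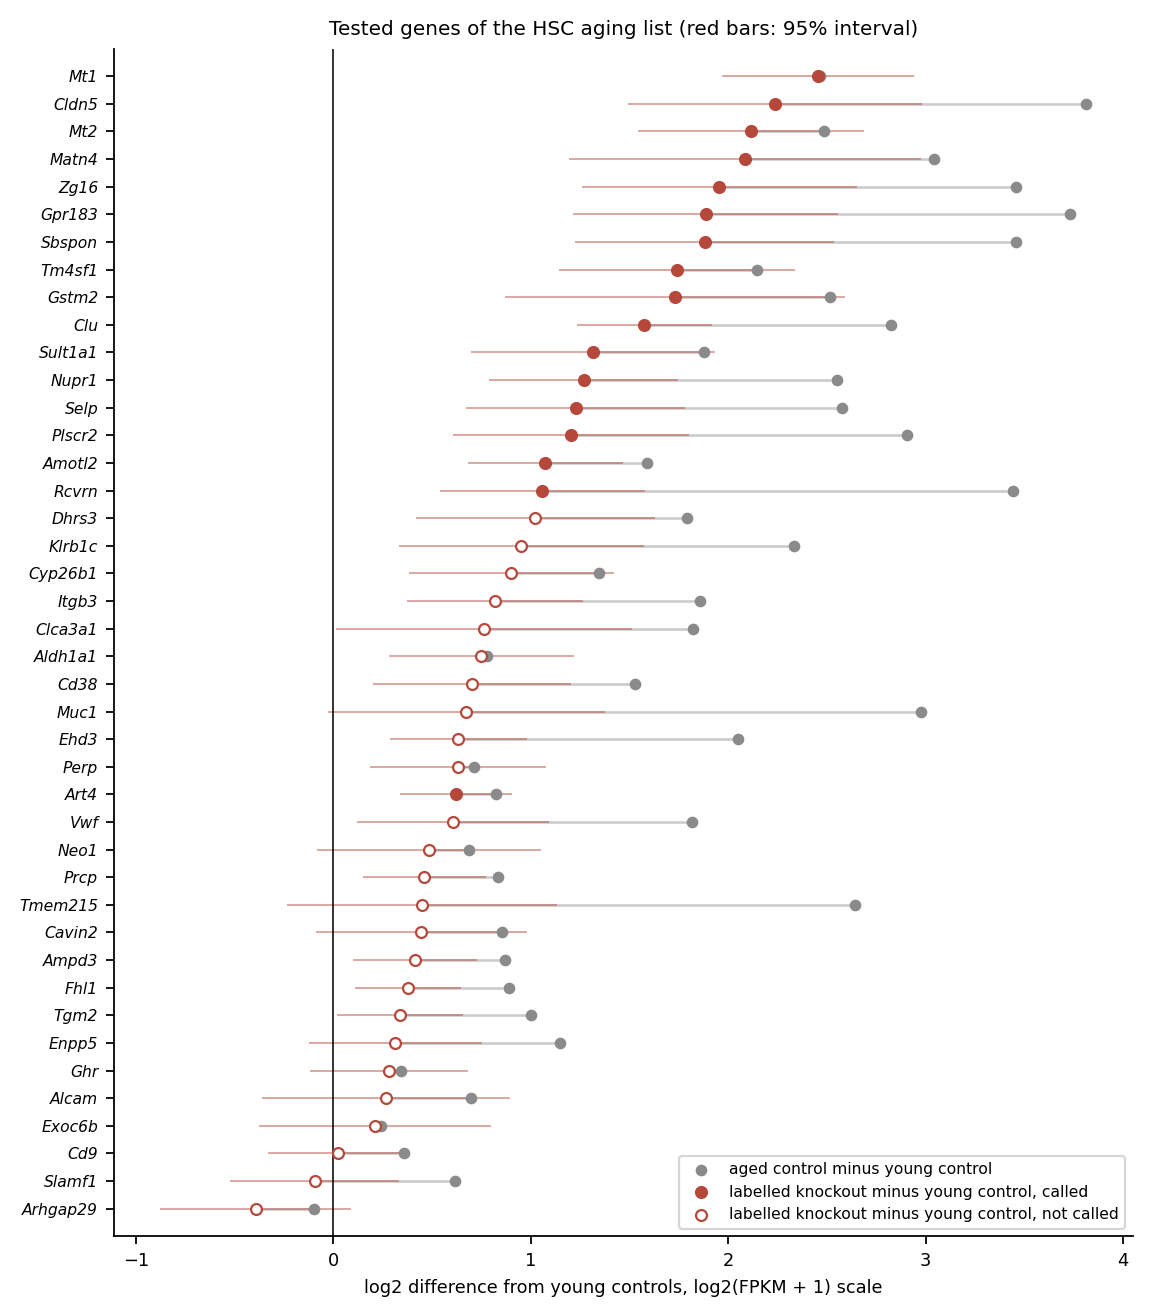
Log2 difference from young controls, on the log2(FPKM + 1) scale, of each tested gene of the HSC aging list, for aged controls (grey) and labelled knockout libraries (red, filled where the gene passed limma's test, with its 95% interval). The 17 filled points run from 0.62 for Art4 to 2.46 for Mt1, and for most genes the grey point lies farther to the right.

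Among the 25 members that did not pass against young controls were 2 platelet adhesion genes and an endocytic regulator that differed from aged controls. Vwf, encoding von Willebrand factor, measured 16.99, 19.9, 18.8, 21.2 and 20.9 FPKM in young, 50.5, 20.3, 36.4, 40.01 and 16.6 in labelled knockout and 75.1, 72.3, 89.9, 54.02 and 69.03 in aged libraries. Labelled knockout library 2 lay inside the young range, library 5 just below it, and libraries 1, 3 and 4 above it. The difference from young controls was 0.61 (limma adjusted p = 0.162), or 1.07 without libraries 2 and 5 (limma adjusted p = 0.00201). Itgb3, the beta chain of the platelet fibrinogen receptor, measured 39.5, 20.7, 36.1, 64.03 and 23.8 in labelled knockout libraries against 18.9 ± 1.66 in young and 71.1 ± 4.70 in aged controls (0.82 from young, limma adjusted p = 0.059; 1.21 and 6.45e-04 without libraries 2 and 5). Ehd3, a regulator of endosomal recycling, measured 33.8, 17.2, 29.3, 34.7 and 25.5 against 17.3 ± 1.65 and 75.3 ± 11.6 (0.63 from young, limma adjusted p = 0.063; 0.88 and 0.00342 without libraries 2 and 5). All labelled knockout values of the 3 genes lay below all aged values, by differences of -1.21, -1.04 and -1.42 (limma adjusted p = 0.00888, 0.0139 and 9.38e-05).

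Genes outside the aging list were also among the largest rises. Gpx3, the secreted glutathione peroxidase, had the largest among genes other than pseudogenes, at 2.59 (95% interval 1.55 to 3.64, limma adjusted p = 0.0102; 3.07 among females, 1.88 among males). It measured 1.96, 2.37, 5.93, 4.43 and 3.96 FPKM in young controls and 14.8, 7.56, 25.6, 38.8 and 104 in labelled knockout libraries, with no overlap, library 2 lowest and library 5 highest. Ramp2, which joins the calcitonin receptor-like receptor to form a receptor for adrenomedullin, measured 15.4, 13.8, 6.85, 16.6 and 48.3 FPKM against 2.90 ± 0.41 in young controls, a rise of 2.18 (limma adjusted p = 0.00415). Lbhd2 rose by 1.71 (limma adjusted p = 0.00625), with library 5 at 59.0 and the others between 15.4 and 20.97 FPKM. The levels of these 3 genes differed from aged controls by 0.22, -0.41 and 0.32, none past the threshold (limma adjusted p = 0.89, 0.662 and 0.694).

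Most of the named falls were shared in direction by the aged controls, measured from the same young libraries. Rnase6, a secreted antimicrobial ribonuclease, went from 36.6, 31.8, 41.8, 45.9 and 40.9 FPKM in young controls to 9.81, 13.6, 15.2, 11 and 22.9 in labelled knockout libraries, with no overlap. It fell by 1.43 on the log2 scale (-1.90 to -0.96, limma adjusted p = 0.00265; -1.39 among females, -1.48 among males), and aged controls lay at 13.4 ± 4.71. Hnf4a, a nuclear receptor best known from liver, went from 6.21 ± 1.57 to 1.82 ± 0.305 (-1.33, limma adjusted p = 5.35e-04), with 1.42 ± 0.502 in aged controls. Haao, an enzyme of tryptophan breakdown through kynurenine, measured 7.15, 8.01, 8.42, 8.37 and 9.40 in young and 2.70, 5.42, 4.18, 3.09 and 2.07 in labelled knockout libraries (-1.09, limma adjusted p = 0.00456), and 1.84 ± 0.496 in aged controls. Cfp, encoding the complement regulator properdin, went from 6.73 ± 1.85 to 2.63 ± 0.729 (-1.08, limma adjusted p = 0.0073), and Ncf4, a cytosolic NADPH oxidase subunit, from 9.98 ± 1.63 to 3.70 ± 1.27 (-1.25, limma adjusted p = 0.0042). Aged controls lay at 1.80 ± 0.590 and 2.36 ± 0.909. Against aged controls none of these 5 genes passed the test, with limma adjusted p-values from 0.114 for Haao to 0.877 for Rnase6.

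Receptors, transporters and a heme enzyme fell as well. Mc5r, a melanocortin receptor, went from 17.8 ± 3.61 FPKM in young controls to 5.28 ± 3.15 in labelled knockout libraries (-1.74, limma adjusted p = 0.00736), with 6.32 ± 2.05 in aged controls. Antxr2, a collagen-binding receptor for anthrax toxin, went from 5.70 ± 1.15 to 1.82 ± 1.32 (-1.37, limma adjusted p = 0.0116; -0.93 and 0.0567 without labelled knockout libraries 2 and 5). Hmox1, the inducible heme oxygenase, went from 8.06 ± 1.38 to 2.88 ± 1.19 (-1.27, limma adjusted p = 0.00513), with 3.90 ± 1.33 in aged controls. Slc22a3, an organic cation transporter, measured 14.4, 5.92, 20.1, 14.5 and 4.05 in labelled knockout libraries against 31.1, 27.3, 24.3, 32.6 and 29.7 in young controls (-1.41, limma adjusted p = 0.0389). The Slc22a3 groups did not overlap, but libraries 2 and 5 were lowest. Its call was lost in 8 of 15 fits that each omitted 1 library (young controls 1, 2, 3, 4 and 5; aged control 3; labelled knockout libraries 2 and 5; limma adjusted p up to 0.105), with the replicate number as a block (0.0563) and without both libraries 2 and 5 (-0.80, limma adjusted p = 0.233).

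A rule that took the 8 largest of the genes that passed the test against both young and aged controls in the same direction gave Cytl1, Dupd1, Insm1, mt-Nd3 and 4 genes near Thbs1. Cytl1, a small secreted cytokine-like protein, measured 0, 0.04, 0.13, 0.10 and 0.10 FPKM in young, 0.47, 0.11, 1.48, 1.53 and 0.65 in aged and 6.33, 3.74, 1.31, 4.58 and 5.96 in labelled knockout libraries. It rose by 2.22 over young controls (1.64 to 2.80, limma adjusted p = 2.53e-04) and lay 1.51 above aged controls (limma adjusted p = 0.00608). Labelled knockout library 3, at 1.31, was the only one inside the aged range. Dupd1, a dual-specificity phosphatase, averaged 0.922 ± 0.391, 0.478 ± 0.162 and 2.88 ± 0.907 in young, aged and labelled knockout libraries (1.01 from young, limma adjusted p = 0.0068). Insm1, a zinc finger factor of neuroendocrine cells on chromosome 2, averaged 0.612 ± 0.155, 0.524 ± 0.222 and 2.64 ± 1.24 (1.12 from young, limma adjusted p = 0.00513). In both, all labelled knockout libraries lay above all other libraries. Cytl1, Dupd1, Insm1 and, below, Tmem87a averaged under 1 FPKM in both control groups. They passed the filter of at least 1 FPKM only through the labelled knockout libraries.

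Of the remaining 5, 4 lie on chromosome 2 near Thbs1. Tmem87a, a Golgi membrane protein gene at 120355312 to 120404113, measured 1, 0.89, 0.69, 0.87 and 0.41 FPKM in young, 0.55, 0.66, 0.56, 0.58 and 0.59 in aged and 5.46, 3.22, 6.74, 7.90 and 5.72 in labelled knockout libraries, a rise of 1.91 (1.54 to 2.28, limma adjusted p = 4.79e-06). Slc28a2, a concentrative nucleoside transporter gene at 122426477 to 122461137, measured 9.08, 7.14, 8.11, 7.42 and 8.98 in young, 3.90, 3.63, 3.93, 5.92 and 4.83 in aged and 1.36, 0.83, 1.68, 1.60 and 0.77 in labelled knockout libraries, a difference of -2.04 (limma adjusted p = 6.53e-07). Spata5l1, an AAA family ATPase gene at 122630625 to 122632930, averaged 5.52 ± 0.911, 3.03 ± 0.753 and 0.662 ± 0.293 (-1.98, limma adjusted p = 1.77e-06). Kcnip3, a calcium-binding channel partner and transcriptional repressor gene at 127456498 to 127522094, measured 8.85, 7.32, 8.42, 8.54 and 9.36 in young, 13.5, 15.8, 10.2, 14.7 and 11.02 in aged and 3.11, 0.83, 3.27, 3 and 3.43 in labelled knockout libraries (-1.41, limma adjusted p = 0.00167). For all 4 genes the labelled knockout libraries lay apart from all 10 control libraries, in females and in males.

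Within 10 Mb of the start of Thbs1, 10 of 118 tested genes (8.47%) were called between labelled knockout and young libraries, 4 higher and 6 lower, against 15 of 791 (1.9%) on the rest of chromosome 2. The same window held 10 called genes (8.47%) between aged and young controls, with 4.17% on the rest of the chromosome, and 11 (9.32%) between labelled knockout and aged libraries, with 2.02% on the rest. Chromosome 2 as a whole held 25 called of 909 tested (2.75%). The other 6 called genes of the window were named after their values were seen. Prom2, a prominin of membrane protrusions, averaged 1.15, 3.41 and 0.188 FPKM in young, aged and labelled knockout libraries (-0.83 from young, limma adjusted p = 0.00849). Sord, sorbitol dehydrogenase, averaged 139, 198 and 91.2 (-0.61, limma adjusted p = 0.00732). Pak6, a p21-activated kinase, averaged 1.02, 3.10 and 3.47 (1.15, limma adjusted p = 7.92e-04), and Itpka, an inositol trisphosphate kinase, 1.55, 1.95 and 4.19 (1.02, limma adjusted p = 0.0122). Snap23, a membrane fusion protein, averaged 13.6, 13.1 and 6.24 (-0.99, limma adjusted p = 0.0255), and Gatm, the first enzyme of creatine synthesis, 20.5, 18.6 and 41.7 (0.93, limma adjusted p = 0.0438). The call on Snap23 was lost in 4 of 15 fits that each omitted 1 library (young controls 1, 3 and 4; labelled knockout library 1; limma adjusted p up to 0.0862), and that on Gatm in 10 of 15 fits that each omitted 1 library (young controls 1, 2, 3, 4 and 5; aged controls 1 and 4; labelled knockout libraries 1, 3 and 5; limma adjusted p up to 0.116).

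**Figure D4:**
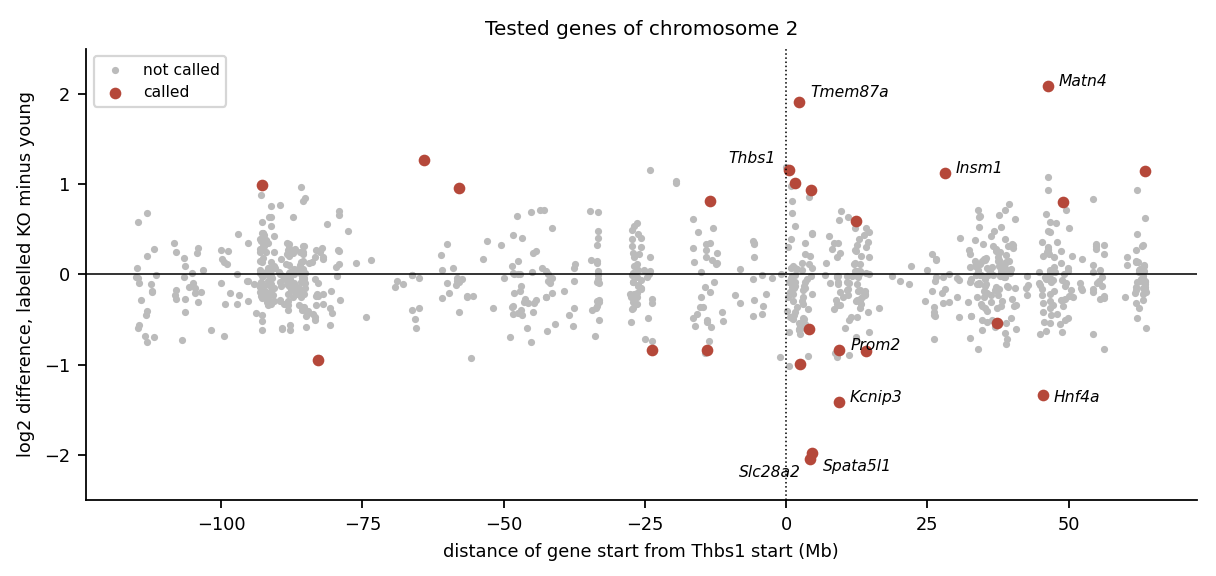
Log2 difference between labelled knockout (KO) and young libraries for the tested genes of chromosome 2, against the distance of the gene start from that of Thbs1 (Mb, dotted line at Thbs1); red points passed limma's test. Of the 25 called genes, 10 lie within 10 Mb of Thbs1, among them Tmem87a at 1.91 and Slc28a2 at -2.04.

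The remaining gene, mt-Nd3, had the largest fall and shares its sequence with a nuclear copy. It encodes a subunit of respiratory complex I on the mitochondrial genome (GRCm38 chromosome M, 9459 to 9806). Its FPKM was 11.9, 14.9, 17.1, 14.2 and 11.1 in young controls, 20.9, 20.3, 24.2, 11.2 and 15.6 in aged controls and 0.27, 0.44, 0.15, 0 and 0.59 in labelled knockout libraries, a difference of -3.53 (-3.94 to -3.12, limma adjusted p = 1.73e-09). The pseudogene Gm28438 (chromosome 1, 24612775 to 24613119, minus strand), named after its values were seen, measured 0.31, 0.24, 0.40, 0.10 and 0.21 in young controls and 36.98, 51.5, 18.1, 16.7 and 30.7 in labelled knockout libraries (4.55, limma adjusted p = 1.73e-09). Gm28438 averaged under 1 FPKM in both control groups and passed the filter of at least 1 FPKM only through the labelled knockout libraries. Its test is therefore no separate support. In the GENCODE M21 transcripts 344 of 345 aligned bases were identical, and the single difference was T3C, with the base of mt-Nd3 first, the position counted from 1 at the 5′ end of the transcript and the base of Gm28438 last. The first 60 bases of both transcripts are shown because a read from either place would read almost alike, and the capital marks the base that differs.
mt-Nd3: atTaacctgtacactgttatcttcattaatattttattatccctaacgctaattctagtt
Gm28438: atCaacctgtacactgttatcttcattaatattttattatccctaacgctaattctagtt
In all 5 labelled knockout libraries most of the summed value stood under Gm28438, and in all 10 control libraries under mt-Nd3. Summed over both genes, FPKM was 14.1 ± 2.43 in young, 18.6 ± 5.14 in aged and 31.1 ± 14.5 in labelled knockout libraries (SD, n = 5 each), 0.98 higher on the log2 scale than in young controls (exact two-sided permutation p = 0.0159). The fall of mt-Nd3 and the rise of Gm28438 are therefore uncertain as changes of either gene alone.

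Pcna, encoding the DNA polymerase clamp, and a near-identical copy differed in opposite directions as well. Pcna measured 82.1, 84.6, 95.4, 101 and 82.9 FPKM in young and 37.5, 43.4, 53.7, 52.8 and 60.2 in labelled knockout libraries (-0.85, limma adjusted p = 0.0107), with no overlap. Its processed pseudogene Pcna-ps2 (chromosome 19, 9283380 to 9284160), named after its values were seen, measured 0.86, 1.23, 1.09, 1.34 and 0.94 in young, 0.44, 0.60, 1.29, 1.01 and 1.36 in aged and 18.5, 24.5, 28.2, 27 and 33.4 in labelled knockout libraries (3.69, limma adjusted p = 4.73e-10). Its transcript matched that of Pcna at 775 of 781 aligned bases. The sum of both was 90.4 ± 8.79 FPKM in young and 75.8 ± 14.3 in labelled knockout libraries, lower by a log2 difference of -0.27 (exact two-sided permutation p = 0.0873). Because the copy is shorter, a read of it adds more FPKM than a read of Pcna. The same sum was therefore also taken in RPM, reads scaled to library size. It was 215 ± 20.9 in young, 150 ± 42.2 in aged and 139 ± 25.7 in labelled knockout libraries. The permutation p belongs to the FPKM sum, and the sum in RPM was not tested. The size of the fall of Pcna is therefore uncertain.

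Cell cycle genes leaned lower without many calls. Of 34 tested, 3 fell in labelled knockout libraries (Pcna, Rrm2 and Top2a), beside 0.617% of all genes, none rose, and all 34 differences were negative, with a median of -0.70 (-0.64 among females, -0.68 among males). In aged controls 2 fell, beside 1.23% of all genes, with a median of -0.58. Rrm2, a ribonucleotide reductase subunit, measured 33.5, 34.4, 27.2, 35.4 and 34.9 FPKM in young and 16.1, 13.9, 22.3, 20.7 and 12.3 in labelled knockout libraries (-0.94, limma adjusted p = 0.0404). Top2a, a DNA topoisomerase of dividing cells, measured 11.6, 4.25, 5.33, 3.48 and 4.84 in young and 1.47, 1.85, 3.12, 2.76 and 2.46 in labelled knockout libraries (-0.97, limma adjusted p = 0.0451). Neither pair of groups overlapped, but both calls rested on single libraries. That on Rrm2 was lost in 9 of 15 fits that each omitted 1 library (young controls 1, 2, 3, 4 and 5; aged control 1; labelled knockout libraries 1, 2 and 5; limma adjusted p up to 0.108), and that on Top2a in 11 of 15 fits that each omitted 1 library (young controls 1, 2, 3 and 5; aged controls 1, 2, 3 and 4; labelled knockout libraries 1, 2 and 5; limma adjusted p up to 0.106). Members without a call included the replicative helicase subunit Mcm4 (39.4 ± 9.29 to 18.6 ± 11.02 FPKM; -1.21, limma adjusted p = 0.0966) and the mitotic cyclin Ccna2 (21.3 ± 2.87 to 10.8 ± 3.85; -0.97, limma adjusted p = 0.0767). Without labelled knockout library 4 there were 15 called members, without library 3 there were 8, and without aged control 5 there were 11. There was 1 without young control 1, 2, 3 or 5, without aged control 1 and without labelled knockout library 1, 2 or 5. Males alone gave 14 and females alone 0, and without both libraries 2 and 5 the median was -0.45 with 1 call.

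HSC identity genes gave 1 call in each direction. Of 31 tested, 1 rose (Ndn) and 1 fell (Mycn), beside 1.01% of all genes called higher and 0.617% lower. The median was 0.01 (0.05 without labelled knockout libraries 2 and 5), with differences above 0 for 16. In aged controls 7 rose and 1 fell, beside 3.18% of all genes called higher and 1.23% lower, with a median of 0.28. Ndn, the growth suppressor necdin, measured 18.9, 21.6, 23.1, 22.9 and 19.3 FPKM in young and 42.1, 43.9, 28.9, 37.5 and 49.3 in labelled knockout libraries (0.88, limma adjusted p = 0.00533), with 40.2 ± 8.36 in aged controls. Mycn, a MYC family transcription factor, moved opposite ways. It measured 74.4, 80.2, 83.5, 89.7 and 94.5 in young, 167, 132, 150.4, 161 and 133 in aged and 62.2, 45.3, 57.7, 51.6 and 51.8 in labelled knockout libraries, 3 ranges without overlap. It fell by 0.65 from young controls (limma adjusted p = 0.00732) and lay -1.45 from aged controls (limma adjusted p = 9.86e-07), whereas aged controls lay 0.81 above young (limma adjusted p = 3.61e-04). Procr, an HSC surface receptor for protein C, averaged 53.4 ± 8.44, 111 ± 29.8 and 85.8 ± 19.7 in young, aged and labelled knockout libraries (0.66 from young, limma adjusted p = 0.107). Factors such as Hlf (-0.20), Mecom (-0.34), Meis1 (-0.30) and Gata2 (-0.06) did not pass against young controls (limma adjusted p = 0.378, 0.4, 0.302 and 0.735). In bulk samples fewer cells of a type and less RNA per cell cannot be told apart.

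Genes of surface proteins used to sort HSCs and their progeny gave 1 fall among 12 tested, beside 0.617% of all genes, with a median of -0.27. None fell and the median was -0.13 without labelled knockout libraries 2 and 5. In aged controls 4 rose and 2 fell, beside 3.18% of all genes called higher and 1.23% lower, with a median of 0.04. Cd34, the sialomucin of progenitors, measured 41.97, 44.01, 51.1, 51.9 and 54.7 FPKM in young, 23.6, 21.7, 40.8, 29.9 and 18.8 in labelled knockout and 23.6, 18.1, 20.3, 29.2 and 24.1 in aged libraries. It fell by 0.88 (limma adjusted p = 0.0154, and 0.0528 without young control 5; -0.64 and 0.0996 without labelled knockout libraries 2 and 5), and it is also the member of the myeloid list that fell. Ly6a, encoding Sca-1, averaged 155 ± 27.2, 284 ± 25.3 and 137 ± 49.02 in young, aged and labelled knockout libraries, -0.23 from young (limma adjusted p = 0.475) and -1.12 from aged controls (limma adjusted p = 0.00432). Flt3, the receptor of multipotent progenitors, measured 9.07, 8.57, 9.77, 9.10 and 11.02 in young, 2.38, 2.56, 2.07, 2.68 and 2.06 in aged and 8.15, 10.8, 5.87, 3.72 and 2.33 in labelled knockout libraries. Its male labelled knockout libraries lay at 8.15 and 10.8, within or next to the young range, and its females at 2.33 to 5.87. The difference from young controls was -0.69 (limma adjusted p = 0.145), -1.20 among females and 0.08 among males. Itga2b, encoding the platelet integrin CD41, measured 50.95, 38.3, 49.1, 39.7 and 17.6 in labelled knockout libraries against 63.3, 67.5, 57.4, 66.2 and 67.6 in young controls (-0.79, limma adjusted p = 0.13) and 145, 146, 145, 63.4 and 192 in aged controls (-1.80, limma adjusted p = 0.00101).

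Megakaryocyte and platelet genes had 1 rise (Selp) and 1 fall (Ppbp) among 22 tested, beside 1.01% of all genes called higher and 0.617% lower, a median of -0.31 and 4 differences above 0. In aged controls 5 rose and 1 fell, beside 3.18% of all genes called higher and 1.23% lower, with a median of 0.21. Directly against aged controls 5 of the 22 were lower, beside 1.19% of all genes, and none higher, beside 0.361%, in the labelled knockout libraries. Ppbp, the platelet chemokine precursor, measured 15.4, 9, 26.4, 20 and 19.02 FPKM in young, 4.66, 6.48, 4.66, 2.30 and 12.6 in aged and 4.24, 5.59, 3.26, 1.76 and 4.98 in labelled knockout libraries. It fell by 1.92 (-2.61 to -1.23, limma adjusted p = 0.00455; -2.45 among females, -1.13 among males) with no overlap. Pf4, another platelet chemokine, measured 220.2, 272, 281, 289 and 192 in young and 111, 185, 159, 51.6 and 173 in labelled knockout libraries, all lower, but did not pass (-0.995, limma adjusted p = 0.236). Aged control 5 alone held 1579 FPKM of Pf4. Gp5, a subunit of the von Willebrand factor receptor complex, averaged 31.5 ± 3.71 and 18.1 ± 4.70 (-0.80, limma adjusted p = 0.107), and Gp1bb, another, 13.1 ± 1.76 and 12.4 ± 3.37 (-0.10, limma adjusted p = 0.831). Without labelled knockout libraries 2 and 5, 3 members rose and 1 fell.

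Lymphoid priming genes all had differences below 0, with a median of -0.47 over 12 tested and 1 fall, beside 0.617% of all genes. The median was -0.30, with 2 falls, without labelled knockout libraries 2 and 5. The fall in the full set was that of Cd27, a costimulatory receptor of the TNF receptor family, with 62.2, 64.6, 71.8, 70.4 and 66.9 FPKM in young and 42.6, 46.2, 48.5, 39.8 and 41.2 in labelled knockout libraries and no overlap (-0.61, limma adjusted p = 0.00455; -0.68 among females, -0.51 among males). Aged controls averaged 54.5 ± 4.56, and their median over the list was -0.18 with 1 rise and 1 fall. Of 11 myeloid genes 1 rose besides the fall of Cd34 (median -0.12; in aged controls 1 rose and 1 fell, median -0.08). In the brackets below, the aged numbers are in the same way the members that rose and that fell in aged controls and their median. Aged counts, here and in the paragraphs below, stand beside 3.18% of all genes called higher and 1.23% lower in aged controls. Prtn3, a granule protease, measured 166, 193, 159, 142 and 339 in labelled knockout libraries against 78.8, 122, 102, 109 and 97.2 in young controls (0.91, limma adjusted p = 0.0497), and its call was lost in 12 of 15 fits that each omitted 1 library (young controls 1, 2, 3, 4 and 5; aged controls 1, 2, 3 and 4; labelled knockout libraries 1, 2 and 5; limma adjusted p up to 0.155). Of 12 erythroid genes 1 fell (median -0.29; aged 0 and 0, -0.14). Hbb-bt, an adult beta globin, measured 3.26, 13.5, 10.2, 10.3 and 19.5 against 21.2, 27.6, 19.3, 24.8 and 24.04 (-1.14, limma adjusted p = 0.0424) with overlap through library 5, and its call was lost in 9 of 15 fits that each omitted 1 library (young controls 1, 2, 3, 4 and 5; aged controls 1, 2, 3 and 4; limma adjusted p up to 0.108). It is reported as uncertain, since the near-identical Hbb-bs can share its reads. Without labelled knockout libraries 2 and 5 no myeloid gene rose, and the erythroid median was -0.56 with 1 fall.

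Cytokine and stress signaling gave single calls, to be read beside 1.01% of all genes called higher and 0.617% lower. Of 21 SOCS and JAK-STAT feedback genes 1 rose and 1 fell (median -0.26; aged 3 and 1, 0.04), and without labelled knockout libraries 2 and 5 none rose, 1 fell and the median was 0.06. Socs3, the inhibitor of gp130 cytokine signaling, measured 2.16, 2.72, 2.04, 3.13 and 1.96 FPKM in young, 4.63, 3.89, 4.62, 5.86 and 4.47 in labelled knockout and 25.2, 17.8, 18.2, 20.2 and 11.3 in aged libraries, without overlap. It rose by 0.75 (limma adjusted p = 0.0413) and lay -1.75 from aged controls (limma adjusted p = 1.79e-05), and its call against young was lost in 8 of 15 fits that each omitted 1 library (young controls 1, 2, 3 and 5; aged controls 2 and 3; labelled knockout libraries 1 and 5; limma adjusted p up to 0.124) and without both libraries 2 and 5 (0.83, limma adjusted p = 0.064). Ebi3, a shared cytokine subunit, measured 43.2, 51.9, 44.2, 42.4 and 42.8 in young, 34.3, 35.3, 20.6, 25.8 and 24.3 in labelled knockout and 11.8, 12.3, 13.1, 12.03 and 11.6 in aged libraries, again without overlap. It fell by 0.68 (limma adjusted p = 0.0143) and lay 1.12 above aged controls (limma adjusted p = 1.80e-04). Of 20 TNF and NF-kB response genes 1 fell (median -0.15; aged 3 and 1, 0.01), the chemokine Ccl5, from 2.56 ± 1.37 to 0.608 ± 0.289 (-1.08, limma adjusted p = 0.0156). Of 18 p53 and DNA damage genes 1 rose (median -0.02; aged 3 and 1, 0.02), Gadd45g, a growth arrest gene, with 13.97, 20.1, 19.3, 21.01 and 69.9 FPKM against 9.24, 11.5, 9.63, 11.6 and 8.35 in young controls (1.19, limma adjusted p = 0.0437). Without libraries 2 and 5 the medians of the TNF and p53 lists were -0.08 and 0.09 with the same counts. The difference of Gadd45g was then 0.78 (limma adjusted p = 0.0343), and its call was lost in 9 of 15 fits that each omitted 1 library (young controls 1, 2, 3, 4 and 5; aged controls 1, 2 and 3; labelled knockout library 2; limma adjusted p up to 0.124).

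Of 22 TGF-beta and BMP genes 1 rose, beside 1.01% of all genes (median -0.21; aged 4 and 0, 0.15). Bmp4, a ligand of the family, measured 5.24, 5.42, 2.55, 3.08 and 4.28 FPKM against 1.48, 2.63, 1.46, 0.99 and 0.92 in young controls (1.04, limma adjusted p = 0.0389), with overlap of library 3 and young control 2, and its call was lost in 8 of 15 fits that each omitted 1 library (young controls 1, 3, 4 and 5; aged control 2; labelled knockout libraries 1, 2 and 5; limma adjusted p up to 0.122). None of 12 thrombospondins and receptors was called (median -0.23; aged 3 and 0, -0.08), including the receptor Cd47 at 92.4 ± 9.82 and 74.6 ± 16.2 FPKM in young and labelled knockout libraries (-0.33, limma adjusted p = 0.278). None of 41 interferon response genes was called either (median -0.17; aged 4 and 0, 0.14). Rtp4, an interferon-induced chaperone, lay at 29.03 ± 4.66 in young, 33.5 ± 9.34 in labelled knockout and 58.5 ± 6.98 in aged libraries, and differed from aged controls by -0.82 (limma adjusted p = 0.0164). None of 22 immediate-early and AP-1 genes was called (median -0.34; aged 0 and 1, -0.28), with Fos at 114 ± 66.8 and 55.8 ± 26.6 FPKM (-0.98, limma adjusted p = 0.162). Without labelled knockout libraries 2 and 5 the medians were -0.02 for TGF-beta and BMP genes with 1 rise, -0.07 for thrombospondins and receptors with 1 rise, and -0.10 for interferon response genes with none. The difference of Bmp4 was then 0.89 (limma adjusted p = 0.229).

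Matrix, junction and antigen presentation lists overlapped the aging genes or gave few calls. Of 15 extracellular matrix genes 2 rose, Sbspon and Matn4, beside 1.01% of all genes (median -0.13; aged 6 and 1, 0.27), and 5 of the 15 were lower than in aged controls, beside 1.19% of all genes. Of 12 tight junction genes 1 rose, Cldn5 (median 0.07; aged 4 and 0, 0.43). Of 11 MHC class II genes 1 fell, beside 0.617% of all genes (median 0.19; aged 1 and 0, 0.44): H2-Ob, a chain of the peptide loading regulator H2-O, from 7.50 ± 1.40 to 3.47 ± 1.58 FPKM (-0.99, limma adjusted p = 0.0389), with the call lost in 9 of 15 fits that each omitted 1 library (young controls 1, 2, 3 and 5; aged controls 1 and 3; labelled knockout libraries 1, 2 and 5; limma adjusted p up to 0.123). Of 6 NADPH oxidase genes 1 fell, Ncf4 (median -0.16; aged 0 and 2, -0.22). Of 23 FoxO and antioxidant genes Gpx3 rose and Hmox1 fell (median 0.23; aged 1 and 1, 0.09). No member was called among 20 MHC class I genes (median 0.06; aged 1 and 0, 0.21), 12 cyclin D, CDK and CDK inhibitor genes (0.03; aged 1 and 0, 0.22), 25 ER chaperone genes (-0.26; aged 1 and 0, 0.02), 28 lysosome and autophagy genes (-0.02; aged 0 and 1, 0.23), 20 DNA methylation and Polycomb genes (-0.35; aged 0 and 0, -0.36) or 30 ribosome biogenesis genes (0.02; aged 0 and 0, -0.12). Without labelled knockout libraries 2 and 5 no MHC class II gene fell and the median was 0.06, and the matrix median was -2.56e-04 with 3 rises. The median was then 0.19 for tight junction, 0.0087 for FoxO and antioxidant, -0.04 for MHC class I, -0.0098 for cyclin D, CDK and CDK inhibitor, -0.17 for ER chaperone, -0.14 for DNA methylation and Polycomb and 0.10 for ribosome biogenesis genes. It was 0.03 for lysosome and autophagy genes, where 1 fell.

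**Figure D5:**
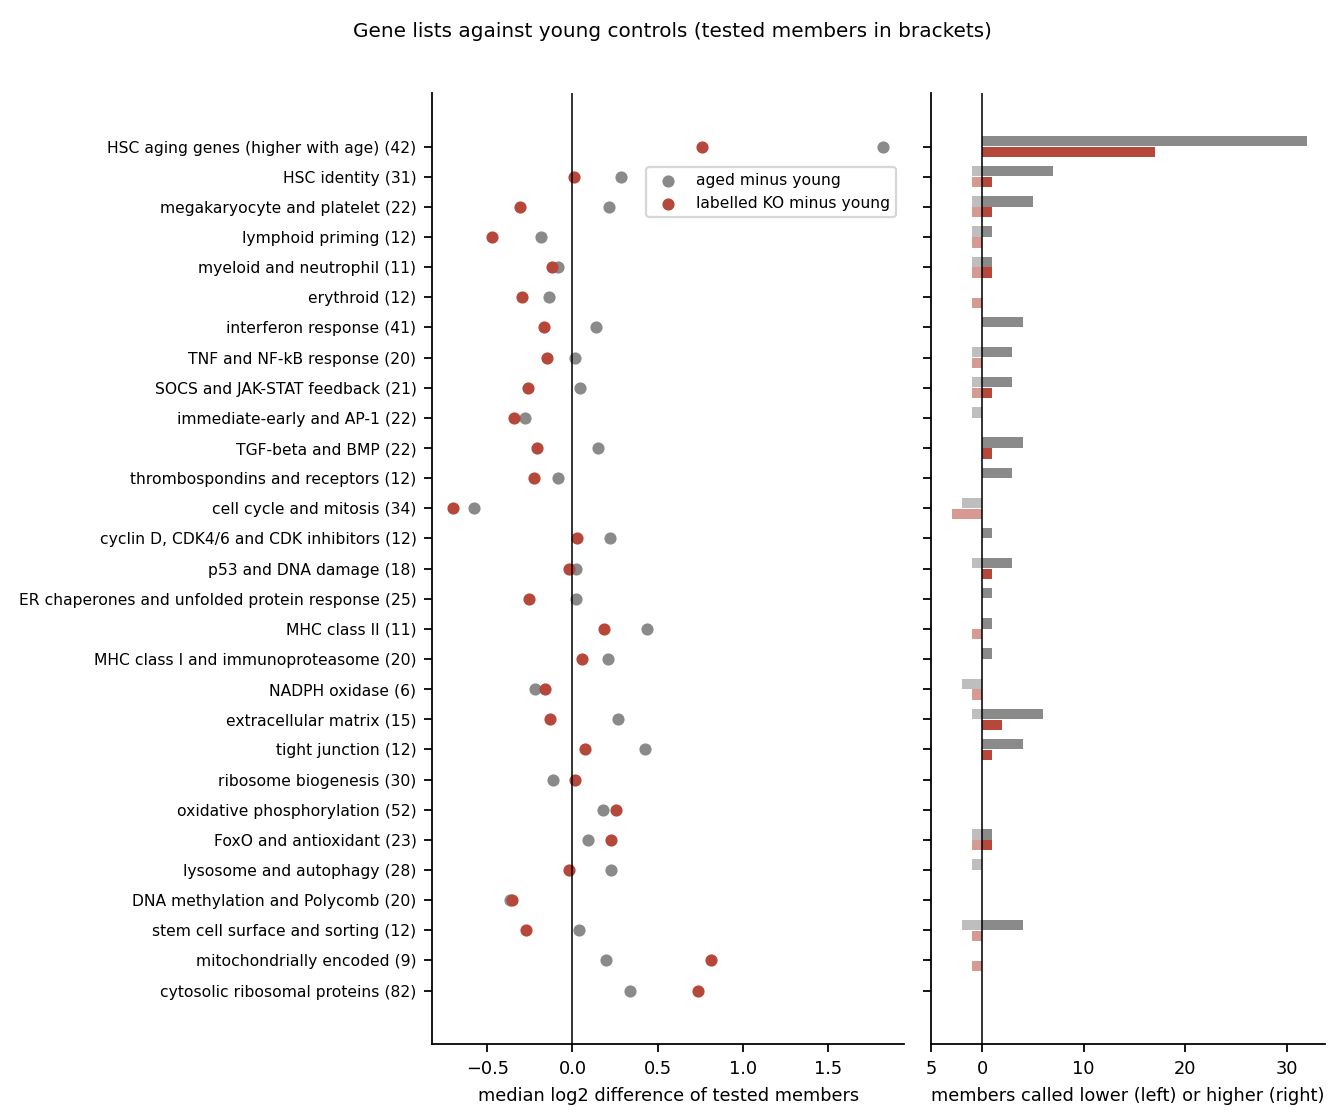
For each of 29 gene lists, the median log2 difference from young controls of its tested members (left) and the number of members called lower or higher by limma (right), for aged controls (grey) and labelled knockout (KO) libraries (red); both use the same young libraries. The aging list has the largest number of called members in both, 17 in labelled knockout libraries and 32 in aged controls, and the cell cycle list has the lowest medians, -0.70 and -0.58.

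The highest list medians without a rise belonged to ribosomal and mitochondrial transcripts, and the ribosomal values were highest in the 2 libraries with most rRNA-like reads. None of 82 cytosolic ribosomal protein genes was called, 81 differences were above 0 and the median was 0.73 (aged 0 and 0, 0.33). The mean over the list was 0.58, 1.22, 0.12, 0.16 and 1.46 in labelled knockout libraries 1 to 5, highest in 2 and 5, and without these 2 the median was 0.30. Quantile normalization moved the median to 0.37 with 15 members called higher, and 48 or 58 were called without labelled knockout library 3 or 4. Of 52 oxidative phosphorylation genes none was called (median 0.26; aged 0 and 0, 0.18), and the median was -0.01 without libraries 2 and 5. Of 9 mitochondrially encoded protein genes only mt-Nd3 was called, and the median of 0.81 (aged 0.19) was 0.45 without these libraries. The mean over that list was 0.65, 1.46, -0.24, -0.41 and 0.21 in labelled knockout libraries 1 to 5, highest in 2 and 1. The part of RNA quality or library composition in these medians was not tested.

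Markers of the sorted cells were present in every library, and the summed markers of other cells differed widely in level. The summed FPKM of 10 HSC markers ranged from 674 to 866 over labelled knockout libraries, from 798 to 852 over young and from 959 to 1064 over aged controls, with no marker called between labelled knockout and young. Megakaryocyte markers (10) summed to 399 to 513 in young, 295 to 1992 in aged and 179 to 356 in labelled knockout libraries, with Ppbp called lower, and this fall lies beside the platelet genes above. Erythroid markers (10) summed to 82.1 to 176, 62.5 to 377 and 44.6 to 247, with Hbb-bt called lower. Neutrophil markers (9 in the table) summed to 6.62 to 19.2, 5.45 to 13.8 and 3.78 to 42.2, the last from library 5, where S100a8 and S100a9 reached 19.3 and 20.1. None of the markers of B cells (35.8 to 47.5, 38.0 to 65.5 and 30.9 to 57.6), T and NK cells (60.7 to 112, 50.9 to 124 and 27.7 to 65.6), macrophages and dendritic cells (9.56 to 15.7, 7.84 to 13.9 and 7.68 to 15.04), mast cells and basophils (3.22 to 7.78, 3.77 to 9.25 and 2.72 to 6.90) or endothelial and stromal cells (16.2 to 24.2, 16.8 to 26.7 and 15.01 to 22.9) was called, with 2, 2, 1, 2 and 5 of them tested. Pax5, Cd3e, Cd2, Cd8a, Gzma, Camp and Tpsb2 were not analysed here. Cd79b made up most of the B cell sum and Nkg7 most of the T and NK cell sum. Itgax, a dendritic cell integrin, stayed under 0.1 FPKM in all libraries. What part other cells had in the differences was not tested.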

How the data were processed

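Processed values were analysed for 15 bulk RNA-seq libraries of sorted mouse HSCs. The authors deposited 1 table of FPKM per gene for 20696 genes. Per the submitters' processing notes, FastQC 0.11.5, STAR and edgeR were used with GRCm38 (mm10), their roles not being given; no source used here states the annotation or the counting settings. Steps in the low FPKM values gave the depth per library, and 97.7% to 98.6% of held-out values came out whole within 0.1 reads.

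Columns were grouped by the sample titles. Genes with a mean of at least 1 FPKM over all 15 libraries (11345; 9351 were not tested) were tested on log2(FPKM + 1), which understates changes of low genes, with limma 3.58.1 in R 4.3.3, with 3 groups in 1 fit, the trend option and Benjamini-Hochberg adjustment over all genes. Single values were tested by exact permutation of libraries. The fit was tested on simulated data. Genes named were Thbs1, the 15 largest rises and falls among called genes with at least 2 FPKM in the higher group (pseudogenes, model names and sex-linked genes left out), members of 29 gene lists with called members first, the 5 smallest p-values, and the 8 largest differences from both control groups; 1 gene that this rule selects is not reported here. The genes compared and the lists were chosen with earlier results of these data known. Gene positions came from GENCODE M21. Alternatives were other pseudocounts, filters, scaling, covariates, subsets of libraries, column grouping by library name, and voom on the recovered read counts. Leaving out each aged control and the sex interaction were chosen after seeing the data.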

Additional observations from a re-analysis of the deposited data

Results flagged for a closer look

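Of 210 groups of 5 libraries examined gene by gene, 20 held a library whose gap to its nearest neighbour exceeded 0.71 of the group's range, Dixon's 95% critical value, which chance exceeds in about 1 in 20 groups. Labelled knockout library 5 accounted for 7 of them. It was high for Mt2 at 24.05 FPKM, Lbhd2 at 59.04, Nupr1 at 75.62, Plscr2 at 18.61, Gadd45g at 69.92 and Tmem215 at 2.7, and low for Itga2b at 17.61. Labelled knockout library 2 was low for Kcnip3 at 0.83. These are the 2 libraries with the largest shares of rRNA-like reads; whether that share bears on these levels was not tested.

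Among aged controls, library 5 was low for Gpr183 at 12.33 FPKM and high for the cell cycle genes Rrm2 at 42.32 and Top2a at 4.43 and for H2-Ob at 7.82. Aged control 4 was high for Sult1a1 at 287.42 and low for Itga2b at 63.43, and aged control 1 was high for Gm28438 at 0.64. Among young controls, library 2 was low for Ramp2 at 2.21 and Mc5r at 11.56 and high for Ebi3 at 51.88. Young control 1 was low for Mt2 at 0.73, and young control 3 was low for Rrm2 at 27.19.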

How the results depend on the processing

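With the columns grouped by library name, labelled knockout against young gave 15 called genes, and the contrasts of aged with young controls and of labelled knockout with aged libraries gave 0 each (limma; 642 and 731 at an unadjusted p under 0.05). In this grouping the young libraries were all male and the labelled knockout libraries all female. Differences between them therefore cannot be told apart from sex. Thbs1 was then 3.10 higher (limma adjusted p = 0.00555). Cldn5 (-0.48), Matn4 (-0.38), Sbspon (-0.067), Gstm2 (-0.82), Rcvrn (-0.145), Prtn3 (-0.0595), Socs3 (-0.20), Bmp4 (-0.0276), Vwf (-0.17) and Tmem215 (-0.55) turned negative and Rnase6 (0.0205), Cd34 (0.0015) and Pcna (0.0044) positive.

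In the order labelled knockout against young, aged against young and labelled knockout against aged, a minimum of 5 FPKM gave 120, 265 and 113 genes. Females alone gave 11, 27 and 10, males alone 875 and 1093 in the first 2, and sex as a covariate 429 in the first. Leaving out both libraries with most rRNA-like reads gave 1030 for aged against young. Adjusting for sex, Thbs1 was 1.19 higher (limma adjusted p = 0.0374), and Flt3 was 0.0789 among males. Leaving out 1 library gave 98 to 676, 311 to 943 and 95 to 229 genes, 0.90 to 1.67 for Thbs1, and -0.0329 to 0.0838 for the distance of labelled knockout less aged libraries. That distance was -0.109 without both libraries with most rRNA-like reads, and turned negative without aged control 5 (-0.0045), labelled knockout library 2 (-0.0162) or 5 (-0.0329). The causes were not tested. Of 61 named called genes, 42 kept their call in every omission of 1 library.

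With the replicate number as a block the counts were 158, 499 and 152 and the limma adjusted p for Thbs1 was 0.144. Deviations of same-numbered young and labelled knockout libraries correlated at -0.19, 0.47, 0.107, -0.226 and -0.426, and only replicate 2 correlated best with its own number. Labelled knockout libraries 1 to 5 correlated best with young controls 2, 2, 5, 5 and 3, each of the same sex by library name. Sex followed the numbers, so these correlations do not show whether the numbers pair the libraries. The block ended the calls on Slc22a3, Rcvrn, Prtn3, Rrm2 and Top2a. The number of 5 libraries per group limits the precision; the effect of depth was not tested.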
